A study of Macaca mulatta with 28 samples.

Results

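Midbrain dopamine neurons are not a single population. They share the machinery that makes, packages and recovers dopamine, but differ in calcium-binding proteins, peptides and transcription factors that vary along the dorsal to ventral axis and between the ventral tegmental area (VTA) and the substantia nigra. Calbindin (CALB1) marks the dorsal tier and much of the VTA, SOX6 and ANXA1 mark ventral tier neurons, and NEUROD6 and GRP mark subsets within the VTA. SLC10A4 is a transporter of synaptic vesicles in monoamine and cholinergic neurons. Calretinin (CALB2) is found in dopamine and non-dopamine midbrain cells, and parvalbumin (PVALB) is best known from fast-spiking GABA neurons and from large projection neurons.

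These 8 genes, chosen by name with earlier results of these data known, were all found among the 16885 entries of the expression table. All 8 passed the count filter that 13769 transcripts passed. RNA came from VTA tissue punches of 28 male rhesus macaques without genetic modification, with 1 library per animal. The 17 drinkers self-administered ethanol and were 1 low, 2 binge, 5 heavy and 9 very heavy drinkers, and the 11 controls were calorie-matched or housing controls, which the labels do not tell apart. Each calorie-matched control was tied to a drinker, whose ethanol calories it was offered as maltodextrin, and the labels do not give these pairs. All animals were sampled after 30 days of abstinence. The animals were studied in 2 cohorts, with 8 drinkers beside 8 controls in the first and 9 beside 3 in the second. The sample labels do not give the cohort. It is listed for the drinkers in the study's source tables, and for the controls it was read from the tables they share with drinkers of either cohort. Animals are named below by their group and a number that carries no order.

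Totals ranged from 12303915 to 27338673 estimated counts per animal, and mitochondrial transcripts took between 36.4% and 60.6% of them. Levels are given in CPM, the counts scaled to a common library size, with library sizes adjusted by the trimmed mean of M values (TMM). The value of a gene is the count of the 1 Ensembl transcript listed for it, so counts assigned to its other transcripts are not included, and levels are not compared between genes. TH (tyrosine hydroxylase, ENSMMUT00000005543.4), the rate-limiting enzyme of dopamine synthesis, was detected in every animal but spanned 5.58 CPM in heavy drinker 3 to 826 CPM in control 5, with a median of 93.1 CPM. The largest gap between neighbouring animals was 0.74 on the log2(CPM + 1) scale, or 0.106 of the range, so the punches formed a continuous series from TH-poor to TH-rich. In bulk tissue, fewer dopamine neurons in a punch and less RNA per neuron cannot be told apart.

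On the Mmul_10 build, RefSeq places the genes on 8 chromosomes, with only SOX6 (chr14:49011566-49673718, plus strand) sharing a chromosome with TH (chr14:2224320-2232217, minus strand), and those genes are far apart. SLC10A4 lies at chr5:47898268-47904097 (plus), CALB1 at chr8:90446738-90471632 (minus), PVALB at chr10:14751168-14769417 (plus), CALB2 at chr20:60113742-60146221 (minus), NEUROD6 at chr3:83782718-83786368 (plus), GRP at chr18:20959437-20971587 (minus) and ANXA1 at chr15:88561712-88580580 (plus). The 250 bases upstream of the annotated gene starts are shown for TH and for SLC10A4, whose transcripts moved together across the animals, at chr14:2232218-2232467 (minus strand) and chr5:47898018-47898267 (plus strand), each 5′ to 3′ on the strand of its gene. Capitals mark matches to the motifs searched.
TH: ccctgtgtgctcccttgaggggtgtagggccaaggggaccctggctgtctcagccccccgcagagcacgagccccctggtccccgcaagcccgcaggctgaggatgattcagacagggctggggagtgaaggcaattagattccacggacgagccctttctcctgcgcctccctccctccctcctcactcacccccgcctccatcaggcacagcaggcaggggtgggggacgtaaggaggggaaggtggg
SLC10A4: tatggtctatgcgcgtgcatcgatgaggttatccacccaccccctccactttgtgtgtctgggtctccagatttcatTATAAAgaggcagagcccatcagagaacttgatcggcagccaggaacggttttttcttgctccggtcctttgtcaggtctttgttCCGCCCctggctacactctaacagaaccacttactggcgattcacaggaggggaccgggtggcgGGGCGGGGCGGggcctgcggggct
Both strands were searched for 6 motifs. AAGGTCA is the NBRE, which the dopamine neuron factor NR4A2 binds. The cAMP response element was searched as TGACGTCA. The GC box of Sp factors was searched as GGGCGG. The E-box of basic helix-loop-helix factors is CANNTG. The TATA box was searched as TATAAA. The motif of the FOXA family was searched as TGTTTAC. The SLC10A4 window held 3 GC boxes, a pair of which shares a base, and 1 TATA box, at positions -173 to -168 from the gene start. None of the searched letters occurred in the TH window. Among 15986 windows of the same length upstream of protein-coding genes in the table, 48.9% held a GC box and 8.05% a TATA box, and 2.92% held the NBRE. SOX6 was the only one of the 8 genes whose window held the NBRE.

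SLC10A4 (ENSMMUT00000009386.4) followed TH most closely. It was detected in every animal, from 6.48 CPM in heavy drinker 3, the animal with the lowest TH, to 107 CPM in very heavy drinker 3, a 16.6-fold span against 148-fold for TH. The median was 22.6 CPM. In the 11 animals with TH below 40 CPM, a bound chosen after seeing the values, SLC10A4 lay between 6.48 and 14.6 CPM, and in the 7 animals with TH above 350 CPM it lay between 54.2 and 107 CPM, without overlap. The slope of SLC10A4 was 0.52 ± 0.04 (SE) on the log2 scale per unit of log2(TH CPM + 1), with an adjusted p of 7.0e-10 in edgeR's quasi-likelihood test over 13768 transcripts. Only 3 transcripts had a lower p, and 78 transcripts, 0.567% of those tested, passed the threshold, 61 with a rising and 17 with a falling slope. The dopamine transporter SLC6A3 (1.06 ± 0.06) and the vesicular monoamine transporter SLC18A2 (0.96 ± 0.07), which load and recover dopamine, had steeper slopes.

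**Figure D1:**
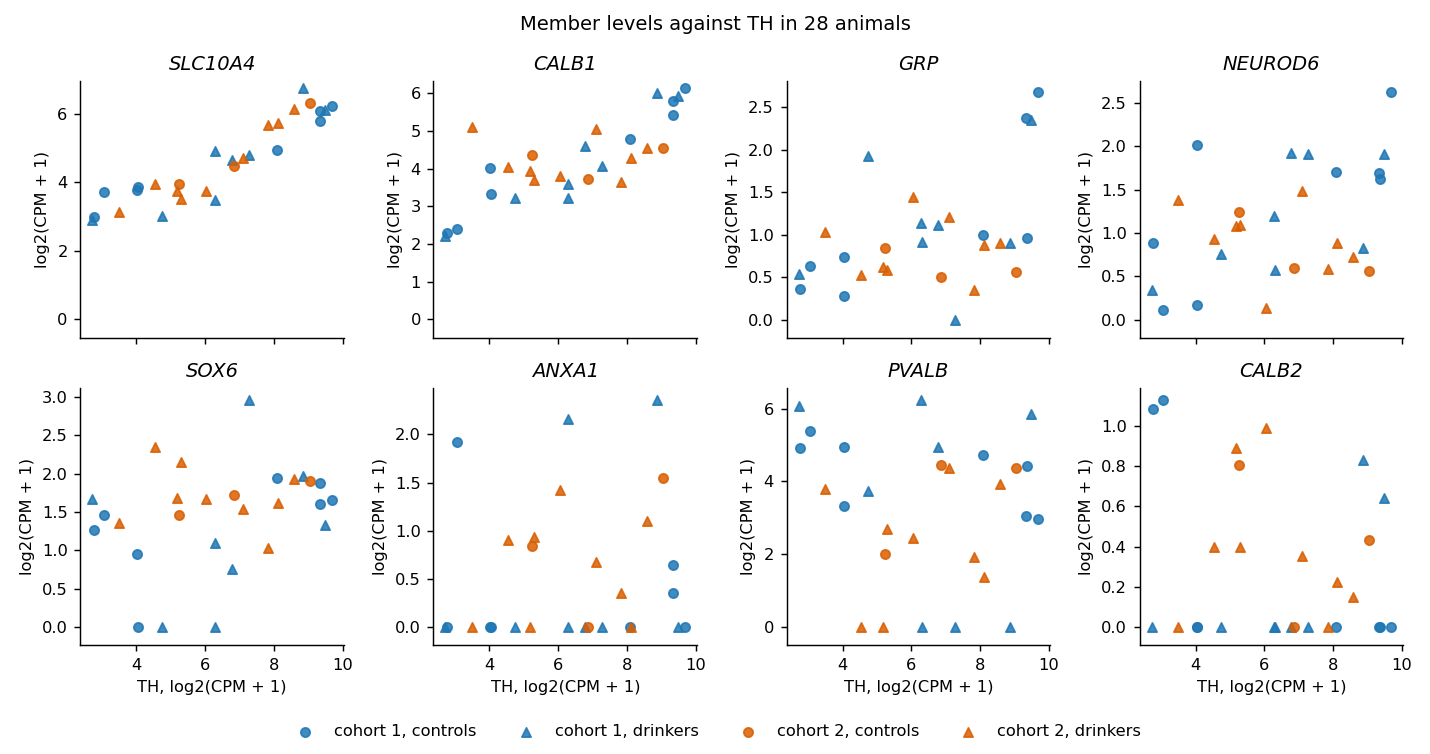
Each panel plots the level of 1 gene, as log2(CPM + 1), against the level of TH on the same scale in 28 animals. Blue marks cohort 1, orange cohort 2, circles controls and triangles drinkers. SLC10A4 rises with TH in both cohorts, while CALB1 rises in cohort 1 and lies between 11.7 and 33.5 CPM at all TH levels in cohort 2.

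The relation held in each cohort and in each arm. Pearson's r of variance stabilized counts of SLC10A4 and TH was 0.93 over 28 animals (permutation p = 1e-05, the smallest that 100000 resamples can give) and Spearman's rho was 0.90 (permutation p = 1e-05). It was 0.92 in cohort 1 (n = 16), 0.97 in cohort 2 (n = 12), 0.94 in drinkers (n = 17) and 0.97 in controls (n = 11). Without the 2 animals farthest from the median TH, control 5 and heavy drinker 2, r was 0.92. The slope was 0.48 ± 0.05 (SE) in cohort 1 alone and 0.62 ± 0.06 in cohort 2 alone, and the difference of 0.14 ± 0.09 between cohorts did not pass the test (edgeR adjusted p = 1). Between drinkers and controls the slope differed by 0.18 ± 0.07, steeper in drinkers, which did not pass over all transcripts either (edgeR unadjusted p = 0.0185, adjusted p = 0.952). For that difference 0.0291% of transcripts passed.

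By Pearson's r among 10801 transcripts that reached 10 counts in 14 or more animals, the 3 most like SLC10A4 were SLC18A2 (r = 0.96), DDC (r = 0.95) and SLC6A3 (r = 0.95). DDC encodes the enzyme that turns L-DOPA into dopamine. The 3 most like TH itself were DDC (r = 0.98), SLC18A2 (r = 0.96) and EN1 (r = 0.96), a transcription factor of midbrain dopamine neurons. No other of the 8 genes had any of these among its 3 nearest.

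**Figure D2:**
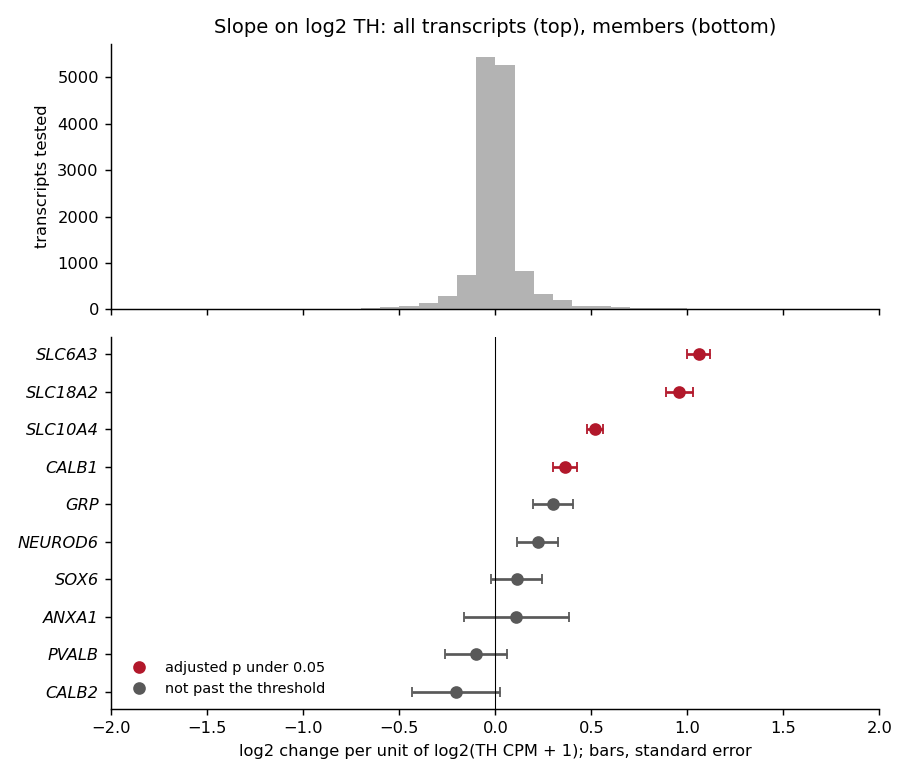
The upper panel is a histogram of the slope on log2(TH CPM + 1) for 13768 transcripts, and the lower panel gives the slope of each of the 8 genes and of SLC6A3 and SLC18A2 with its standard error, in red where the adjusted p passed 0.05. SLC10A4 (0.52) and CALB1 (0.36) pass the threshold, and the other 6 lie between -0.21 and 0.30.

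CALB1 (ENSMMUT00000009328.4), a cytosolic calcium buffer with EF-hand domains, was also detected in every animal. Its level ran from 3.63 CPM in heavy drinker 3 to 69.2 CPM in control 5, the animals with the lowest and the highest TH, with a median of 15.6 CPM. Over all animals it rose with TH by 0.36 ± 0.06 (SE) per unit of log2 TH (edgeR adjusted p = 0.00152, rank 28 of 13768 transcripts). Pearson's r with TH was 0.79 (permutation p = 1e-05) and Spearman's rho 0.73 (permutation p = 4e-05, n = 28). Leaving out any 1 animal kept r between 0.76 and 0.86. In controls (n = 11) r was 0.90 (permutation p = 9e-05), and in drinkers (n = 17) it was 0.67 (permutation p = 0.00288) with rho of 0.54 (permutation p = 0.0276). Among drinkers r was 0.32 without the 2 animals farthest from their median TH, so there it rests on those animals. The slopes of drinkers and controls were -0.16 ± 0.12 (SE) apart, which did not pass the test (edgeR adjusted p = 1).

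The relation was seen in cohort 1 and was not detected in cohort 2. In cohort 1 (n = 16) the slope was 0.53 ± 0.05 (SE, edgeR adjusted p = 2.63e-05), r was 0.95 (permutation p = 1e-05) and rho 0.94 (permutation p = 1e-05), as close as for SLC10A4. In cohort 2 (n = 12) the slope was -0.02 ± 0.08 (edgeR adjusted p = 0.999), r was 0.06 (permutation p = 0.85) and rho 0.03 (permutation p = 0.94). The animals show where the cohorts part. In cohort 1, the 6 animals with TH below 40 CPM had CALB1 between 3.63 and 15.1 CPM, and the 5 with TH above 350 CPM had CALB1 between 42.2 and 69.2 CPM. In cohort 2, the 5 animals below 40 CPM of TH had CALB1 between 11.9 and 33.5 CPM, and the 2 above 350 CPM, very heavy drinker 7 and control 10, had 22.5 and 22.6 CPM. Those 2 animals had 69.4 and 79.1 CPM of SLC10A4, within the 54.2 to 107 CPM of the 5 TH-rich animals of cohort 1.

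The difference between the cohorts' CALB1 slopes was -0.55 ± 0.10 (SE), cohort 2 minus cohort 1, with the lowest p of 13768 transcripts (edgeR unadjusted p = 5.59e-06). Its adjusted p of 0.0764 did not pass the threshold, and neither did that of any other transcript (0% passed, 678 with an unadjusted p under 0.05). The call depends on the tool, on the count filter and on single animals. DESeq2's Wald test gave an adjusted p of 2.07e-04 and called 41 transcripts, and edgeR gave 0.0177 when at least 10 counts were required in every animal. Over the 28 fits that each leave out 1 animal, the adjusted p lay between 0.00512 (without control 6) and 0.377 (without very heavy drinker 5), and it passed in 7 of them. Very heavy drinker 5, with TH of 10.3 CPM and CALB1 of 33.5 CPM, moved the estimate most. Without it the difference in slopes was -0.40, and r within cohort 2 was 0.41. In this animal the summed level of 5 markers of cortical excitatory neurons was 92.6 CPM, the highest of the 28 animals, most of it from NRGN (84.6 CPM), a calmodulin-binding protein of forebrain neurons, while that list had medians of 36.7 CPM in cohort 1 and 51.4 CPM in cohort 2, and its part in the CALB1 value was not tested. Cohort and any step of housing, dissection or library preparation done by cohort cannot be told apart here.

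**Figure D3:**
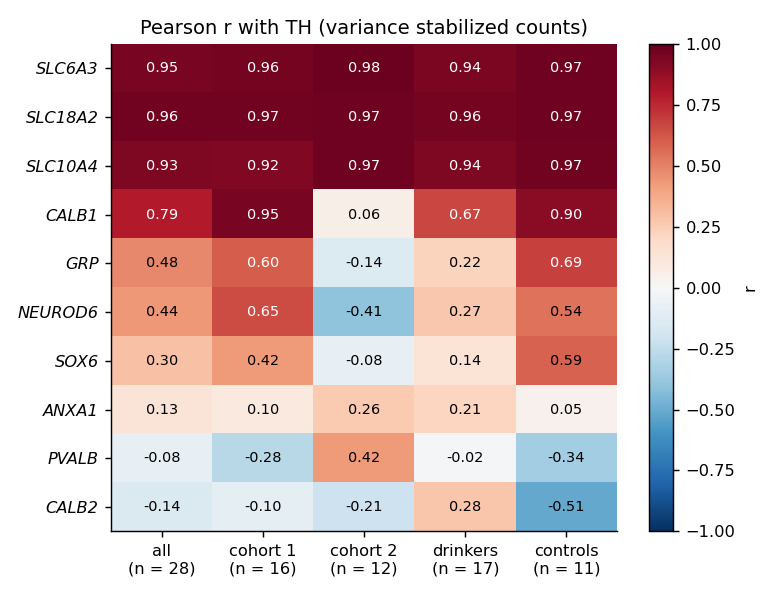
Colours and numbers give Pearson's r with TH on variance stabilized counts for SLC6A3, SLC18A2 and the 8 genes, over all animals and within each cohort and arm. The first 3 rows lie above 0.9 in every column, and CALB1 has 0.95 in cohort 1 and 0.06 in cohort 2.

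CALB1 had other neighbours than SLC10A4. The 3 transcripts most like it were IGFBP4 (r = 0.88), a binding protein of insulin-like growth factors, WNT7B (r = 0.87), a secreted signalling protein, and NTSR1 (r = 0.86), the neurotensin receptor that dopamine neurons carry. Of 4 GABA neuron markers none passed the test of the slope on TH (median slope -0.03), and their summed level had r = -0.52 to TH and r = -0.65 to CALB1 on the log2 scale over 28 animals, as a description of values that share 1 total per library. Against TH that r was -0.72 in cohort 1 and 0.39 in cohort 2, and its part in the slopes was not tested.

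PVALB (ENSMMUT00000012260.4), a fast calcium buffer with EF-hand domains, showed no detectable relation to TH. It was listed at 0 in 5 animals (low drinker 1, binge drinker 1, heavy drinkers 1 and 5 and very heavy drinker 3), all of them drinkers, and reached 74.9 CPM in very heavy drinker 2. All 11 controls had between 3.03 and 41.1 CPM, with a median of 20.5 CPM. The slope on TH was -0.10 ± 0.16 (SE, edgeR adjusted p = 1.0) and r was -0.08 (permutation p = 0.69, n = 28), with r = -0.28 in cohort 1 and 0.42 in cohort 2. None of its 23 values above 0 was a whole number (tolerance 0.001). Salmon gives fractions where it shares reads among transcripts, so a 0 for this transcript is not a 0 for the gene, and the part of that sharing in the zeros was not tested. Of the 28 TH values, 5 were whole, so the reference gene carries such sharing too, and its part in the slopes was not tested. The nearest neighbours of PVALB were RAB3D (r = 0.79), TESC (r = 0.77) and THEM6 (r = 0.75).

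CALB2 (ENSMMUT00000011749.4) and ANXA1 (ENSMMUT00000017765.4), a calcium-dependent membrane-binding protein, were each listed at 0 in 15 of 28 animals, and the highest values were 1.19 CPM (15 counts, control 1) for CALB2 and 4.14 CPM (85 counts, very heavy drinker 3) for ANXA1. The 13 values above 0 ran from 2 to 20 counts for CALB2 and from 6 to 85 counts for ANXA1, and none was a whole number, so their zeros have the same limit as those of PVALB. CALB2 had a slope on TH of -0.21 ± 0.23 (SE) and r of -0.14 (permutation p = 0.46), and ANXA1 a slope of 0.11 ± 0.27 and r of 0.13 (permutation p = 0.52, n = 28 for both). Covariation with TH was not detected for either transcript.

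SOX6 (ENSMMUT00000003916.4), a transcription factor that sets ventral tier identity, had the lowest coefficient of variation of the 8 (0.67). It was listed at 0 in 3 animals (control 7, heavy drinker 1 and very heavy drinker 1) and was otherwise between 0.69 and 6.81 CPM, with a median over all animals of 2.05 CPM and its highest value in low drinker 1. Only 3 of its 25 values above 0 were whole, so the limit on zeros given for PVALB holds here too. The slope on TH was 0.11 ± 0.13 (SE, edgeR adjusted p = 1.0) and r was 0.30 (permutation p = 0.12), 0.42 in cohort 1 and -0.08 in cohort 2. Among the 11 controls r was 0.59 (permutation p = 0.02) and among the 17 drinkers 0.14 (permutation p = 0.61); the slopes of drinkers and controls were -0.14 ± 0.27 apart (edgeR adjusted p = 1). RefSeq lists 31 transcripts for SOX6, a gene that also serves cortical and oligodendrocyte lineages, and the table holds 1 of its Ensembl transcripts.

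GRP (ENSMMUT00000010613.4), the gastrin-releasing peptide, and NEUROD6 (ENSMMUT00000031947.4), a basic helix-loop-helix factor, were low but mostly counted in whole reads (23 of 27 and 27 of 28 values above 0). GRP ranged from 0 in low drinker 1 to 5.39 CPM (123 counts) in control 5, and only control 5, control 8 (4.20 CPM) and heavy drinker 2 (4.09 CPM) exceeded 3 CPM. All 3 belong to cohort 1 and to the 4 animals with the highest TH. NEUROD6 ranged from 0.08 CPM (1 count) in control 1 to 5.17 CPM (118 counts) in control 5. Slopes on TH were 0.30 ± 0.11 (SE) for GRP and 0.22 ± 0.11 for NEUROD6, and neither passed over all transcripts (edgeR unadjusted p = 0.00873 and 0.0467, adjusted p = 0.421 and 0.788). Pearson's r with TH was 0.48 for GRP (permutation p = 0.00941) and 0.44 for NEUROD6 (permutation p = 0.0205), and Spearman's rho 0.40 (permutation p = 0.0332) and 0.35 (permutation p = 0.0703, n = 28). The correlations rest on the TH-rich end. Without control 5 and heavy drinker 2, r was 0.25 for each, and leaving out control 5 alone gave r of 0.38 and 0.33 (permutation p = 0.0526 and 0.0946). Over the fits that each leave out 1 animal, the slope lay between 0.24 and 0.35 for GRP and between 0.16 and 0.29 for NEUROD6. Without heavy drinker 3 and control 2, the animals farthest from the median log2 TH, the slopes were 0.28 for GRP and 0.20 for NEUROD6.

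GRP and NEUROD6 had positive estimates in cohort 1 and negative ones in cohort 2, as SOX6 did, without passing a test of the difference. In cohort 1, r with TH was 0.60 for GRP (permutation p = 0.013) and 0.65 for NEUROD6 (permutation p = 0.00695), and in cohort 2 it was -0.14 and -0.41 (permutation p = 0.68 and 0.19). The slopes differed by -0.42 ± 0.25 (SE) for GRP and -0.54 ± 0.23 for NEUROD6, cohort 2 minus cohort 1 (edgeR adjusted p = 1 and 0.844). For NEUROD6 this was close in size to the difference of CALB1 with a standard error more than 2 times as large.

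Among the 28 pairs of the 8 genes, 3 pairs correlated past 0.05 after Benjamini-Hochberg adjustment over the 28 pairs, and all 3 included CALB1. They were CALB1 with SLC10A4 (r = 0.73, rho = 0.72, adjusted permutation p = 2.8e-04), with NEUROD6 (r = 0.64, rho = 0.62, adjusted permutation p = 0.00308) and with GRP (r = 0.62, rho = 0.52, adjusted permutation p = 0.00355). Unadjusted permutation p for these values of r were 1e-05, 2.2e-04 and 3.8e-04, and without the 2 animals farthest from the median CALB1 r was 0.64, 0.65 and 0.58. Given TH, by a partial correlation with 1 relation to TH for both cohorts, CALB1 and SLC10A4 had r = -0.02. CALB1 and NEUROD6 kept r = 0.54 (adjusted permutation p = 0.0454) and CALB1 and GRP 0.46 (adjusted permutation p = 0.103). In cohorts 1 and 2 alone the slopes on TH were 0.53 and -0.02 for CALB1 and 0.32 and -0.22 for NEUROD6. TH was thus not held constant within each cohort, and the part of this in these r was not tested. The other pair that passed given TH was SLC10A4 with ANXA1 (r = 0.55, adjusted permutation p = 0.0454), whose plain r was 0.31 (adjusted permutation p = 0.27). That plain r was 0.05 without the 2 animals farthest from the median SLC10A4. ANXA1 was listed at 0 in 15 of 28 animals, and very heavy drinker 3 had the highest level of both genes. Within cohorts 1 and 2, CALB1 and SLC10A4 had r = 0.93 and 0.11, while CALB1 and NEUROD6 had r = 0.66 and 0.58 and CALB1 and GRP 0.63 and 0.49. Within cohort 1 only the pair of CALB1 and SLC10A4 passed and within cohort 2 none did. SOX6 and CALB1, which mark different tiers, had r = 0.26 (permutation p = 0.18), and no pair was negatively correlated past the threshold.

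The 8 genes can be set beside lists of genes of the same kinds, which hold some of the 8. Over all 13768 transcripts tested, 61 rose with TH and 17 fell, 0.567% together. Of 24 tested genes that define dopamine neurons in general, 12 rose with TH and none fell (median slope 0.37, against 0.0004 over all transcripts). They included DDC (0.99 ± 0.05, SE), the receptor tyrosine kinase RET (0.50 ± 0.04), the nicotinic subunit CHRNB3 (0.81 ± 0.08) and the transcription factors EN1 (0.80 ± 0.09) and PITX3 (0.84 ± 0.12). SLC10A4 is 1 of these 12. Of 12 tested ventral tier genes, which include SOX6 and ANXA1, only KCNJ6 rose (0.23 ± 0.05, edgeR adjusted p = 0.00966), with a median slope of 0.11. KCNJ6, a potassium channel subunit, is counted among the 12 rising genes above as well. Of 24 tested genes of the dorsal tier and VTA, CALB1 and the peptide VIP rose (0.93 ± 0.20 for VIP, whose highest level was 1.75 CPM) and none fell, with a median slope of -0.02. That list also holds CALB2, NEUROD6 and GRP. Of 27 other EF-hand proteins and 9 annexins, ANXA1 among them, none passed, with medians of -0.01 and 0.01. Of CALB1, CALB2, PVALB and ANXA1, which all bind calcium, only CALB1 passed over all animals, and its slope in cohort 2 alone was -0.02. CALB2 and ANXA1 were listed at 0 in 15 animals each, and the standard errors of their slopes were 0.23 and 0.27. A slope of the size of 0.36, that of CALB1, could have gone undetected in them.

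Turning to drinking history, none of the 8 genes differed between 17 drinkers and 11 controls, in a comparison in which 0% of 13769 transcripts passed (edgeR, 630 with an unadjusted p under 0.05, and 11 adjusted calls by DESeq2, none of them among the 8). CALB1 had a median of 15.4 CPM in drinkers (3.63 to 63.7) and 19.6 CPM in controls (3.92 to 69.2), a log2 difference of -0.24 ± 0.42 (SE). SLC10A4 had 24.1 CPM (6.48 to 107) and 21.2 CPM (6.93 to 79.1), a difference of -0.16 ± 0.46. The other differences were -0.13 ± 0.82 for PVALB, 0.20 ± 0.59 for SOX6, -0.45 ± 0.50 for NEUROD6, -0.28 ± 0.56 for GRP, -0.24 ± 1.10 for CALB2 and 0.43 ± 1.20 for ANXA1, all with an edgeR adjusted p of 1.0. TH itself differed by -0.78 ± 0.72. Ranges overlapped for every gene, and TH-poor and TH-rich punches fell in both arms (5.58 to 712 CPM of TH in drinkers, 5.81 to 826 CPM in controls).

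**Figure D4:**
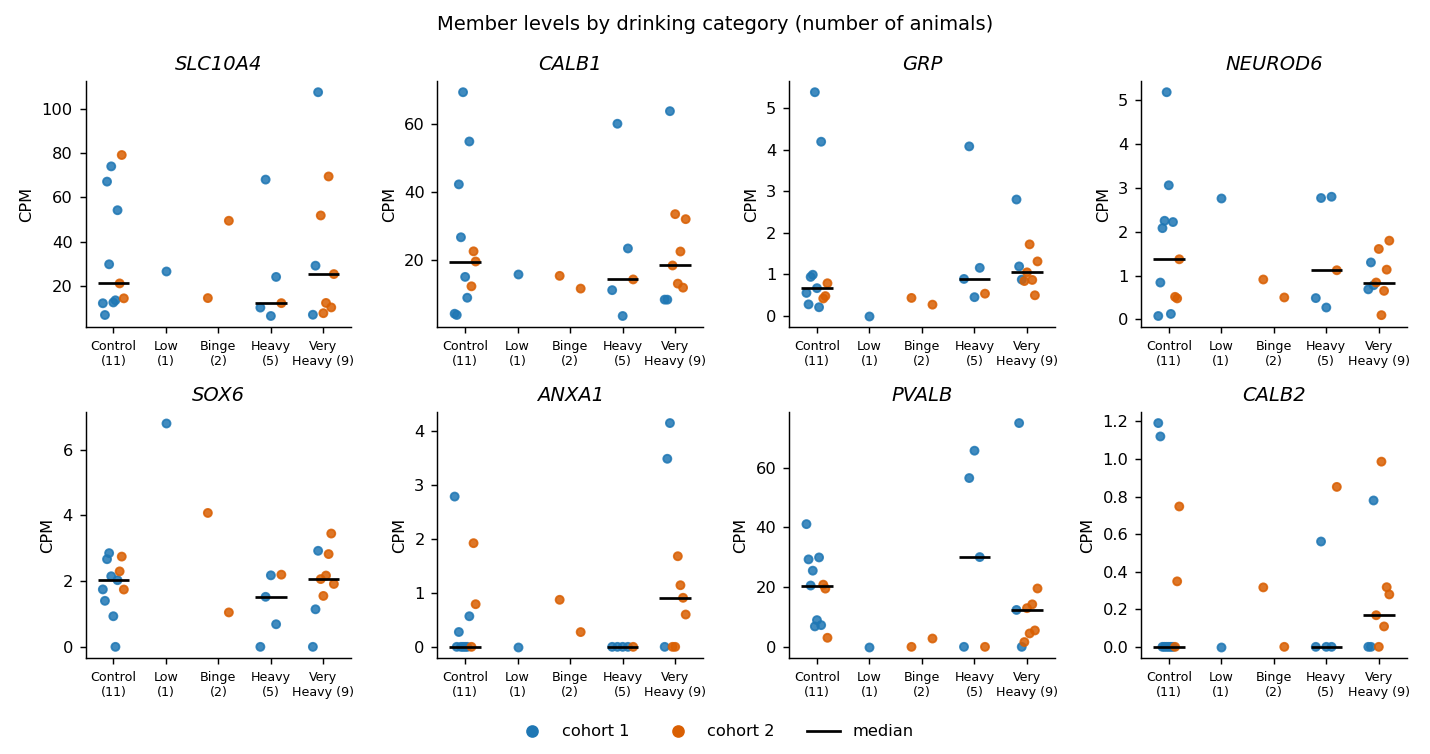
Points give the CPM of each of the 8 genes in each animal by drinking category, blue for cohort 1 and orange for cohort 2, with a black line at the median for categories of more than 2 animals. PVALB in the low drinker and both binge drinkers lies below the lowest control, the low drinker lies above the highest control in SOX6 and below the lowest in GRP, and the other categories overlap the controls for each gene, with ANXA1 at 0 in all 5 heavy drinkers as in 6 of the 11 controls.

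By category, 0% of transcripts passed in very heavy (615 with an unadjusted p under 0.05), heavy (932) or low and binge drinkers (668) against controls in edgeR. Very heavy drinkers had medians of 18.4 CPM of CALB1 (8.41 to 63.7) and 25.4 CPM of SLC10A4 (7.05 to 107), log2 differences of -0.11 ± 0.50 (SE) and 0.02 ± 0.55 from controls. The 5 heavy drinkers, in the order of their numbers, had 11.2, 60.0, 3.63, 23.4 and 14.3 CPM of CALB1 and 10.3, 68.0, 6.48, 24.1 and 12.3 CPM of SLC10A4, with heavy drinker 2, the TH-richest of them, highest in both. ANXA1 was listed at 0 in all 5 (edgeR unadjusted p = 0.00744, adjusted p = 0.619); 6 of 11 controls and 3 of 9 very heavy drinkers were at 0 as well, so no fold is given.

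No gene passed in the low drinker and the 2 binge drinkers, and some of their values lay outside the range of controls. PVALB was 0 in the low drinker and 0 and 2.78 CPM in the binge drinkers, all below the lowest control (3.03 CPM). GRP was 0 in the low drinker, below every control, and 0.44 and 0.27 CPM in the binge drinkers, within the range of controls (0.21 to 5.39 CPM). SOX6 was 6.81 CPM in the low drinker and 4.07 CPM in binge drinker 1, above every control (highest 2.85 CPM), and 1.05 CPM in binge drinker 2, with a log2 difference of 1.09 ± 0.92 (SE, edgeR adjusted p = 1). Such values were not particular to these 3 animals. Very heavy drinkers 8 (3.45 CPM) and 3 (2.92 CPM) were also above every control in SOX6, and very heavy drinker 4 (1.60 CPM) and heavy drinkers 1 and 5 and very heavy drinker 3 (all at 0) were also below every control in PVALB. PVALB and GRP had unadjusted p of 0.021 and 0.0284 and adjusted p of 0.93 in edgeR, and no fold is given for them because values of 0 set its size. CALB1 was 15.9 CPM in the low drinker and 15.4 and 11.7 CPM in the binge drinkers, and SLC10A4 26.8, 14.6 and 49.5 CPM, in each case within the range of controls.

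Between the cohorts, with arm in the model, 0.0436% of transcripts passed and none of the 8 genes. The largest differences were those of PVALB, with a median of 23.0 CPM in cohort 1 (0 to 74.9) and 4.99 CPM in cohort 2 (0 to 20.8), of GRP (0.92 and 0.66 CPM) and of NEUROD6 (1.69 and 0.88 CPM). On the log2 scale these were -1.55 ± 0.82, -1.02 ± 0.58 and -0.85 ± 0.53 (SE), cohort 2 minus cohort 1 (edgeR adjusted p = 0.551, 0.606 and 0.658). CALB1 had nearly the same median in both cohorts, 15.5 and 16.9 CPM, but a different spread: its SD was 23.6 CPM in cohort 1 and 7.52 CPM in cohort 2, while that of SLC10A4 was 30.5 and 25.1 CPM. The spread of TH was 299 CPM in cohort 1 and 166 CPM in cohort 2, with highest values of 826 and 530 CPM. The effect of drinking differed between the cohorts for 0.0145% of transcripts and for none of the 8 genes. ANXA1 was above 0 in 5 of 16 animals of cohort 1 and 8 of 12 of cohort 2, and CALB2 in 4 and 9, counts that were not tested on their own.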

How the data were processed

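VTA RNA of 28 animals was prepared as poly-A libraries and sequenced in pairs. The authors trimmed reads with Trim Galore 0.6.7, quantified them with Salmon 1.9.0 against Mmul_10 and deposited estimated counts without normalization, 1 transcript per gene symbol. The annotation release, how that transcript was chosen and whether strand was used are not given in the sources used here. Of 16886 entries, 1 without a gene symbol (1.16e-05 percent of counts) was left out. Counts were rounded. Transcripts reaching 5 counts in 3 or more animals were tested with edgeR 4.0.16 (TMM, quasi-likelihood, Benjamini-Hochberg over all transcripts at 0.05; DESeq2 1.42.0 as alternative; R 4.3.3). TH was left out of its own slope. Correlations used variance stabilized counts and two-sided permutation tests with 100000 resamples (numpy 2.4.6). The tests were checked on simulated data. For the 8 correlations with TH, permutation p-values are given unadjusted. After Benjamini-Hochberg adjustment over the 8 genes, permutation p over 28 animals was 0.0251 for r and 0.0885 for rho of GRP. For NEUROD6 these were 0.041 and 0.141. Genes named beside the 8 are TH, the 3 most alike and the dopamine genes with the lowest p in the slope on TH; EF-hand and annexin genes are counted only, and NRGN was named after its value was seen. The genes and lists were chosen with earlier results of these data known. Each animal is 1 library, so p-values include the spread of dissection. Sequences are from RefSeq, Mmul_10; the coordinates of the deposited transcripts are not given.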

Additional observations from a re-analysis of the deposited data

Results flagged for a closer look

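In 40 tests of a gene within a drinking category or within 1 arm of 1 cohort (4 to 10 animals each, on the log2(CPM + 1) scale), 2 animals lay far from the others, as many as chance flags at 1 in 20. SOX6 was 0 CPM in very heavy drinker 1, against 1.14 to 3.45 CPM in the other 8 very heavy drinkers; only 3 of the 25 SOX6 values above 0 were whole, and a 0 of the listed transcript is not a 0 of the gene. ANXA1 was 2.78 CPM in control 1, against 0 to 0.566 CPM in the other 7 controls of cohort 1.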

How the results depend on the processing

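Among 889 alternative values, 789 kept their direction and their side of the threshold or stayed within the stated limits. DESeq2's Wald test called more transcripts than edgeR: 11 for drinkers, 27 for very heavy, 44 for heavy and 73 for low and binge drinkers against controls, 121 between cohorts, 129 for the drinking effect by cohort, 41 for the slope on TH by arm and 41 by cohort. Between cohorts edgeR called 3 with DESeq2 size factors, 10 with at least 10 counts in every animal, 13 with TH as covariate and 104 in drinkers alone, and 5 for drinkers against controls in cohort 1 alone. Leaving out 1 of the 3 controls of cohort 2 gave 0 to 4 calls for the drinking effect by cohort (4 without control 11, 0 without control 9 or 10); the other animals were not left out there. For the slope on TH there were 257 calls without a filter, 31 with the strict one, 50 in cohort 1 and 21 in cohort 2, where 1 of the 8 genes passed (SLC10A4). There were 50 without the 2 animals farthest in log2 TH, which for the slopes are heavy drinker 3 and control 2. For the slope by arm there were 44 without a filter and 0 with the strict one, and by cohort 20, 2, and 5 with the mean of SLC6A3 and SLC18A2 in place of TH. CALB1 alone of the 8 passed by cohort (1 call) under DESeq2, without a filter, with the strict filter and with that mean. Without 1 animal there were 0 to 5 calls by cohort, 0 to 1 of them among the 8.

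Of the 8 genes, 4 correlated with TH at a permutation p under 0.05, against 1 within cohort 2, 2 in drinkers, 2 without the 2 farthest animals, 2 with SLC6A3 in place of TH and 2 to 4 without 1 animal. Pairs past the threshold numbered 3, against 1 in cohort 1, 0 in cohort 2 and 2 given TH. The median of SOX6 was 4.04 CPM of non-mitochondrial counts. None of these genes differed between arms, and the sign of that difference turned for CALB1 (0.0915 with TH as covariate, 0.0833 in cohort 2), CALB2 (0.35 with TH), PVALB (0.51 in cohort 1), SLC10A4 (0.0552 in cohort 1), NEUROD6 (0.29 in cohort 2), GRP (0.0518 with cohort as covariate, 0.16 with TH, 0.57 in cohort 2) and ANXA1 (-0.57 in cohort 2). The slope on TH turned in cohort 2 for CALB1 (-0.0172), PVALB (0.25), SOX6 (-0.0329), NEUROD6 (-0.22) and GRP (-0.0535), for PVALB without the 2 farthest animals (0.0054) and for ANXA1 without very heavy drinker 3 (-0.0457; range without 1 animal -0.0457 to 0.46). Within cohort 2, r with TH turned for GRP (-0.135), NEUROD6 (-0.41), SOX6 (-0.08) and PVALB (0.42), as did r of CALB1 and SLC10A4 given TH (-0.016). The causes were not tested. No paired analysis was possible because the labels do not say which control was yoked to which drinker, and replicate numbers only name animals. CALB2 and ANXA1 are listed at 0 in 15 animals each, and whether depth or the sharing of reads among transcripts sets these zeros was not tested. The slope fits without 1 animal and the slope by cohort on the mean of SLC6A3 and SLC18A2 were chosen after seeing the data. So were the slope by cohort with arm as covariate and the slope by arm with cohort as covariate.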
